A study of Homo sapiens with 6 samples.

Results

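The inhibitors of the cyclin-dependent kinases (CDKs) are encoded by 7 genes of 2 families, the CIP/KIP genes *CDKN1A*, *CDKN1B* and *CDKN1C* and the INK4 genes *CDKN2A*, *CDKN2B*, *CDKN2C* and *CDKN2D*. Their mRNA was followed in A2780 cells, a human ovarian cancer line, treated with DMSO vehicle or with 6 µM TH-588 for 48 h. TH-588 is a mitotic inhibitor of MTH1, the hydrolase that removes oxidized nucleotides from the nucleotide pool. Polyadenylated RNA from 3 biological replicates of each treatment was sequenced, 6 libraries in all, named below by treatment and replicate letter (DMSO A to TH-588 C). The 7 genes were taken from the 58336 genes of the count table by their Ensembl identifiers, and 6 of them, all but *CDKN2B*, passed the filter on low counts that left 15844 genes for testing. Both arms are the same cell line, TH-588 was given at a single dose for a single time, and only RNA was measured. The labels give no time for the DMSO libraries.

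CDK inhibitors bind CDKs or CDK-cyclin complexes and hold back the cell cycle. The CIP/KIP proteins p21 (*CDKN1A*), p27 (*CDKN1B*) and p57 (*CDKN1C*) contact both the kinase and the cyclin and block mainly CDK2 complexes. The INK4 proteins p16 (*CDKN2A*), p15 (*CDKN2B*), p18 (*CDKN2C*) and p19 (*CDKN2D*) bind CDK4 and CDK6 alone and keep the D cyclins away from them. *CDKN1A* is the classical p53 target of cell cycle arrest, *CDKN1C* is an imprinted gene, and p27 is controlled to a large extent through its degradation. *CDKN2A* and *CDKN2B* are often deleted or silenced in tumors.

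Total counts ranged from 28537837 in TH-588 replicate A to 99074175 in TH-588 replicate B. The small nucleolar RNA *SNORD3A* took 21.94% of the counts of TH-588 replicate A and 7.68% to 12.95% in the other libraries. Levels are normalized counts per 1000000 (CPM), scaled by edgeR's TMM factors, and levels of different genes are compared only as RPKM, which is CPM per kilobase of exon. Changes are log2 fold changes of TH-588 over DMSO with their standard error (SE), and adjusted p-values are from edgeR's quasi-likelihood test with Benjamini-Hochberg adjustment over all 15844 genes. With 3 libraries against 3, an exact permutation test of a single value cannot go below p = 0.1. A lower mRNA level can reflect fewer cells that make it or less mRNA per cell, which bulk libraries cannot tell apart. Of 11 epithelial and ovarian carcinoma markers only 3 passed the filter on low counts, *EPCAM*, *KRT18* and *FOLR1*. All 3 were higher with TH-588, beside 24.2% of all genes tested. *FOLR1* was rare and passed the filter only with its TH-588 counts. It had 13, 3 and 14 counts in DMSO A, B and C and 11, 43 and 22 in TH-588 A, B and C. *PAX8*, *KRT7* and *CDH1* were at or near 0 in every library. The summed level of the 11 markers was 3.85 to 4.75 CPM with DMSO and 11.4 to 12.6 CPM with TH-588. Leukocyte markers summed to 0.671 to 1.20 CPM and endothelial markers to at most 0.132 CPM over all 6 libraries, with *CD3E* at 0 throughout. Of 5 fibroblast markers, all tested, 2 were higher with TH-588, beside 24.2% of all genes tested. The sum of the 5 markers, almost all of it *COL3A1*, was 1589 to 1917 CPM with DMSO and 1878 to 2618 CPM with TH-588. The part of these markers in the results was not tested.

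Of the 6 inhibitor genes tested, 4 changed after TH-588. *CDKN1A*, *CDKN1C* and *CDKN2D* were higher, *CDKN2C* was lower, and *CDKN1B* and *CDKN2A* did not pass the threshold of an adjusted p under 0.05. The background was high, because 49.6% of all genes tested passed the same threshold, 24.2% as higher and 25.3% as lower. Against this background, 4 calls among 6 genes are no result about the family as such, and the account below rests on the sizes and directions of the single genes.

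**Figure D1:**
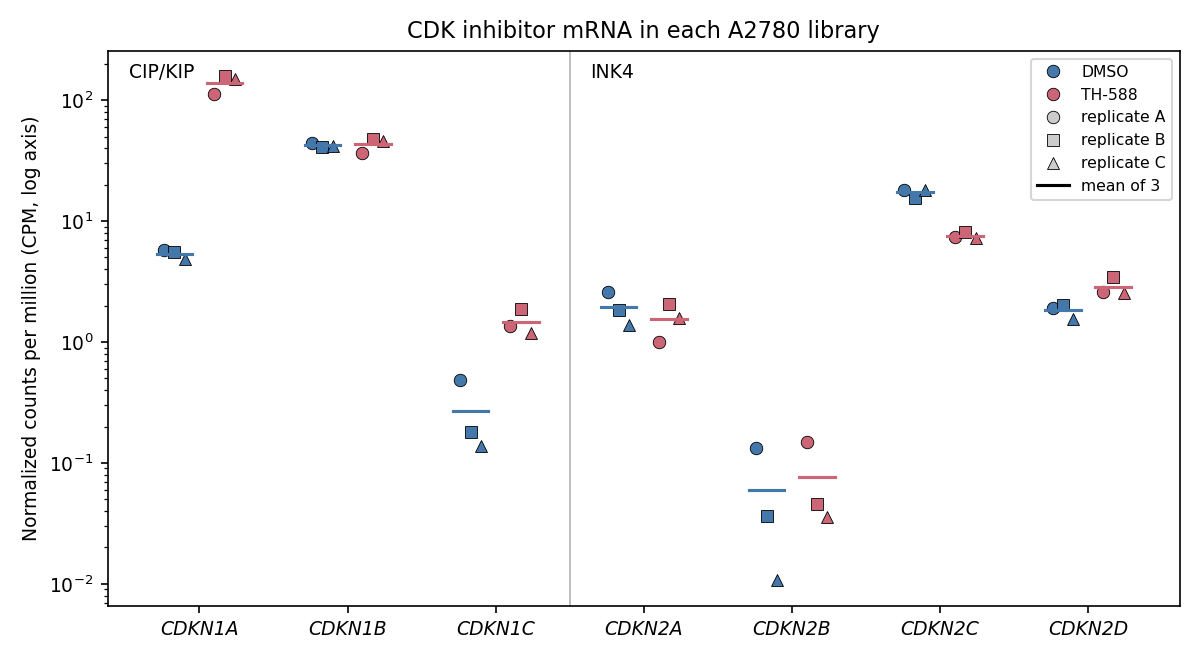
Normalized counts (CPM, log axis) of the 7 CDK inhibitor genes in each library, with DMSO in blue, TH-588 in red, a marker shape for each replicate letter and a bar at the mean of 3. *CDKN1A* lies at 4.84 to 5.72 CPM with DMSO and at 112 to 158 CPM with TH-588, *CDKN2C* falls from at least 15.5 to at most 8.14 CPM, and the groups of *CDKN1B*, *CDKN2A* and *CDKN2B* overlap.

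*CDKN1A* (ENSG00000124762) encodes p21 and lies on the plus strand of GRCh38 at chr6:36676460-36687339, with 8 exons that cover 3050 bases in the count table. DMSO A, B and C held 470, 454 and 453 *CDKN1A* counts, or 5.72, 5.50 and 4.84 CPM. TH-588 A, B and C held 2991, 17216 and 12472 counts, or 112, 158 and 149 CPM. All 3 treated libraries were far above all 3 controls, and replicate A, the shallowest library, was the lowest of the treated ones. The mean rose from 5.35 ± 0.460 CPM to 139.8 ± 24.7 CPM (SD, n = 3 each), 26.1 times the control level. The log2 fold change was 4.71 (SE 0.14, adjusted p = 1.88e-09), and it was 4.86 without TH-588 replicate A.

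The region upstream of *CDKN1A* is shown because p53 acts on this gene through sites there. The window from 2500 bases before to 500 bases after the RefSeq start of 6 of the 7 genes, all but *CDKN1C*, was searched on hg38 for the p53 consensus, a pair of 10-letter half-sites without spacer. The consensus reads the same on both strands. The best matches of *CDKN1A* had 18 of 20 letters at 2 places, chr6:36676449-36676468 (2265 bases upstream, the distal match) and chr6:36677331-36677350 (1383 bases upstream, the proximal match). Both are printed on the plus strand, with the 4-letter core of each half-site in capitals.
CDKN1A distal match: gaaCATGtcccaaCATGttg
CDKN1A proximal match: gaaGAAGactgggCATGtct
A match of at least 18 letters was found in 7.63% of 27305 such windows, and 2 separate matches of at least 18 letters in 79 windows, or 0.289%. The best match of *CDKN1B*, *CDKN2A* and *CDKN2B* had 17 letters, as good as in 49.0% of windows, and that of *CDKN2C* and *CDKN2D* had 16 letters, as good as in 97.7% of windows. *CDKN2A* uses alternative first exons, and its RefSeq start at 21995324 was not assigned to p16. That start lies just outside the gene model of the count table, which ends at 21995301. The gene model of the count table begins at 36676460, inside the distal match and upstream of the RefSeq start at 36678714. A match is a run of letters and not a bound site.

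The promoters of the strongest riser and of the member that fell are shown next to each other, since they differ in base composition. Each is the 250 bases before the RefSeq start on GRCh38.p14, chr6:36678464-36678713 for *CDKN1A* and chr1:50960495-50960744 for *CDKN2C*, both on the plus strand. Capitals mark the GC box GGGCGG on either strand.
CDKN1A: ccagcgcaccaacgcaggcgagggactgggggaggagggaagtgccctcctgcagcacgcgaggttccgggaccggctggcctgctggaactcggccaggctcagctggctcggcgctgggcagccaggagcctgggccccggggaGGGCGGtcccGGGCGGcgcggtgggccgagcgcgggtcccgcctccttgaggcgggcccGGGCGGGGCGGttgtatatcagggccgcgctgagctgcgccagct
CDKN2C: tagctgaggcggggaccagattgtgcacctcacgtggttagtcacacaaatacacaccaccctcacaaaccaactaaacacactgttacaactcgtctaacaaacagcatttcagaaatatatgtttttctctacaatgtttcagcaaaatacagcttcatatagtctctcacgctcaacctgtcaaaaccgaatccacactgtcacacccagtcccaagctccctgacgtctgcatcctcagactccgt
RefSeq entries of 300 bases, from 250 before to 50 after the start, were matched by symbol for 6 of the 7 genes, all but *CDKN1C*. The *CDKN1A* entry was 74.3% G and C and held 4 GC boxes, 2 of which share a base. The *CDKN2C* entry was 46.3% G and C, the lowest of the 6, and held no GC box. The median of all 27305 promoters was 58.3%, and 44.6% of them held the GC box. Between these, *CDKN1B* (62.3%) held 1 GC box, *CDKN2A* (63.3%) none, *CDKN2B* (67.3%) 2 and *CDKN2D* (68.0%) 3. The *CDKN2A* entry is that of the RefSeq start given above, which was not assigned to p16. The CCAAT box, the letters CCAAT on either strand, occurred 3 times in *CDKN1B*, once in *CDKN2D* and in 35.7% of all promoters. TATAAA (12.0% of all promoters), the cell cycle homology letters TTTGAA (15.4%) and the E2F letters TTTCGCGC (0.546%), TTTGGCGC (0.659%) and TTTCCCGC (1.66%) were in none of the 6 windows on either strand.

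*CDKN1A* shares 146 of its 3050 exon bases with *DINOL*, a noncoding RNA transcribed from the opposite strand. *DINOL*, named here after its values were seen, had 0, 0 and 2 counts in DMSO A, B and C and 16, 25 and 33 counts in TH-588 A, B and C. The ratio of its summed counts, scaled by the summed normalized library sizes, was 43.7 for TH-588 over DMSO. Its 95% exact interval of 11.7 to 367 covers counting error only. The library kit, TruSeq RNA v2, does not mark strand, so reads of the shared bases cannot be assigned to one of the 2 genes. The summed *DINOL* counts of the 3 treated libraries, 74, are small next to the *CDKN1A* counts.

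*CDKN1B* (ENSG00000111276, chr12:12715058-12722371, plus strand) encodes p27. It stood at 44.0, 41.0 and 41.7 CPM in DMSO A, B and C and at 36.4, 47.6 and 45.7 CPM in TH-588 A, B and C. The treated libraries lay on both sides of the controls. The means were 42.2 ± 1.58 and 43.2 ± 6.01 CPM (SD, n = 3 each), and the log2 fold change was 0.04 (SE 0.10, adjusted p = 0.784). Its 95% limits, from the t distribution of the same test, were -0.18 to 0.26.

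*CDKN1C* (ENSG00000129757, chr11:2883213-2885773, minus strand) encodes p57 and was rare. It had 40, 15 and 13 counts in DMSO A, B and C, or 0.487, 0.182 and 0.139 CPM. TH-588 A, B and C had 36, 202 and 99 counts, or 1.35, 1.86 and 1.19 CPM. The groups did not overlap, although DMSO replicate A was well above the other controls. The log2 fold change was 2.46 (SE 0.42, adjusted p = 0.000391). Without DMSO replicate A it was 3.22, and over all alternatives it lay between 2.13 and 3.22 with the adjusted p at or below 0.00436. The treated level stayed low, at 0.590 ± 0.141 RPKM (SD, n = 3).

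*CDKN2A* (ENSG00000147889, chr9:21967753-21995301, minus strand) encodes p16 and, from another first exon and reading frame, p14ARF, the inhibitor of MDM2. The table has 1 row for the gene, so the 2 products cannot be separated. It stood at 2.59, 1.84 and 1.39 CPM in DMSO A, B and C and at 1.01, 2.06 and 1.59 CPM in TH-588 A, B and C. The groups overlapped, and the log2 fold change was -0.27 (SE 0.28, adjusted p = 0.459) with 95% limits of -0.87 to 0.34. The antisense RNA *CDKN2B-AS1* overlaps 341 of the 4329 exon bases of *CDKN2A* and had 0 counts in all 6 libraries, which allows up to 0.0276 to 0.112 CPM per library at a floor of 3 counts.

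*CDKN2B* (ENSG00000147883, chr9:22002903-22009363, minus strand) encodes p15 and was the rarest member. DMSO A, B and C had 11, 3 and 1 counts, and TH-588 A, B and C had 4, 5 and 3. It did not pass the filter. The ratio of its summed counts, scaled by the summed normalized library sizes, was 0.944 for TH-588 over DMSO. Its 95% exact interval for counting error was 0.403 to 2.16, so a change of less than about this size was not detectable at this depth. The ratio of the mean CPM, in which each library weighs the same, was 1.28 and so went in the other direction. *CDKN2A* and *CDKN2B* both had counts in every library. *MTAP*, the gene next to them that is often deleted with them in tumors, stood at 10.6 to 11.4 CPM with DMSO and 7.44 to 9.90 CPM with TH-588 (log2 fold change -0.32, SE 0.13, adjusted p = 0.0533).

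*CDKN2C* (ENSG00000123080, chr1:50960745-50974633, plus strand) encodes p18 and was the one member that fell. It stood at 18.1, 15.5 and 18.2 CPM in DMSO A, B and C. In TH-588 A, B and C it stood at 7.44, 8.14 and 7.18 CPM, and the highest treated library was well below the lowest control. Replicates were close within both groups. The mean was 2.28 times as high with DMSO as with TH-588, a log2 fold change of -1.18 (SE 0.12, adjusted p = 4.87e-06).

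*CDKN2D* (ENSG00000129355, chr19:10566462-10569059, minus strand) encodes p19, the INK4 protein not to be confused with the mouse product p19ARF of another gene. It stood at 1.91, 2.04 and 1.56 CPM in DMSO A, B and C and at 2.62, 3.45 and 2.54 CPM in TH-588 A, B and C. The groups did not overlap, and the log2 fold change was 0.66 (SE 0.19, adjusted p = 0.0125). This was the smallest change called in the family, and it was lost without DMSO replicate C (0.57, adjusted p = 0.0513) and without TH-588 replicate B (0.49, adjusted p = 0.0830).

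**Figure D2:**
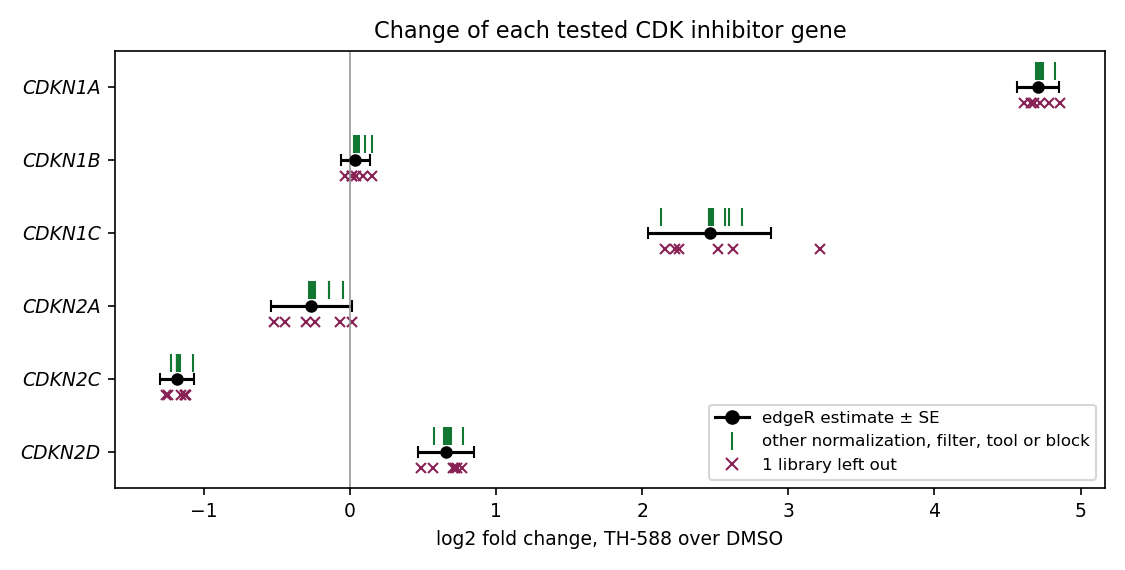
Log2 fold change of the 6 tested genes, TH-588 over DMSO, with the edgeR estimate and its SE in black, fits with another normalization, filter, tool or a replicate block as green ticks, and fits without 1 library as crosses. *CDKN1A* stays between 4.61 and 4.86 in all of them, *CDKN2C* between -1.26 and -1.08, and *CDKN1B* and *CDKN2A* lie on both sides of 0.

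Compared per length, the family was led by a different gene in each treatment. With DMSO the order of mean RPKM was *CDKN1B* (15.0), *CDKN2C* (5.20), *CDKN1A* (1.76), *CDKN2D* (1.22), *CDKN2A* (0.448), *CDKN1C* (0.109) and *CDKN2B* (0.0149), and the ranges of neighbors in this order did not overlap. With TH-588 it was *CDKN1A* (45.8), *CDKN1B* (15.4), *CDKN2C* (2.29), *CDKN2D* (1.91), *CDKN1C* (0.590), *CDKN2A* (0.359) and *CDKN2B* (0.0190), where *CDKN2C* (2.16 to 2.46 RPKM) and *CDKN2D* (1.69 to 2.29 RPKM) overlapped. *CDKN1A* moved from the third to the first place, and *CDKN1C* passed *CDKN2A*.

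The share of *CDKN1A* in the summed RPKM of the 7 genes was 7.48%, 7.87% and 6.80% in DMSO A, B and C and 67.4%, 69.4% and 70.0% in TH-588 A, B and C. It rose from 7.38% ± 0.544 to 68.9% ± 1.37 (SD, n = 3 each, two-sided exact permutation p = 0.1, the smallest possible). TH-588 replicate A was again the lowest treated library on this scale. In the same libraries the share of *CDKN1B* went from 63.2% ± 0.667 to 23.2% ± 0.581 and that of *CDKN2C* from 21.9% ± 1.57 to 3.50% ± 0.549 (SD, n = 3 each). The fall of the *CDKN1B* share came with an almost constant *CDKN1B* level. The summed RPKM went from 23.8 ± 1.14 to 66.4 ± 10.7, and without *CDKN1A* it was 22.0 ± 1.07 with DMSO and 20.5 ± 2.62 with TH-588 (SD, n = 3 each, two-sided exact permutation p = 0.4). The CIP/KIP genes together held 71.1% ± 0.645 of the sum with DMSO and 93.1% ± 0.891 with TH-588 (SD, n = 3 each).

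**Figure D3:**
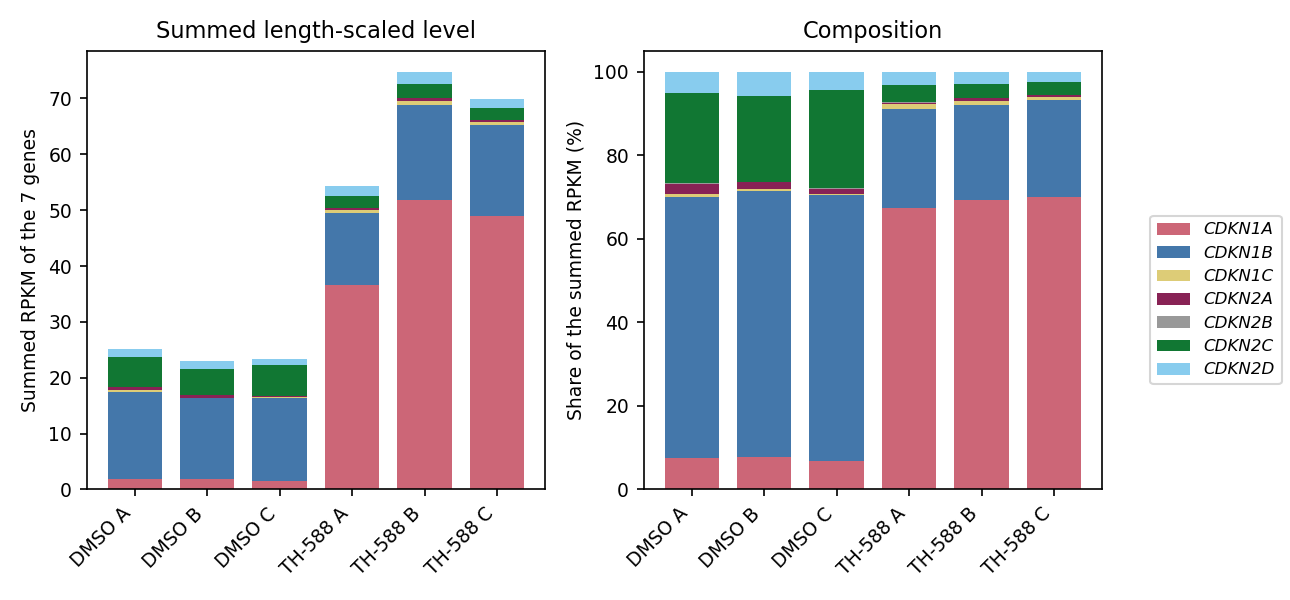
Stacked bars of the 7 genes in each library, as RPKM on the left and as percent of their summed RPKM on the right. The *CDKN1A* segment grows from at most 7.87% to at least 67.4% of the sum, while the *CDKN1B* segment stays between 12.9 and 16.9 RPKM in all 6 libraries.

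Set against the mRNA of the kinases that the proteins bind, *CDKN1A* went from 0.243 ± 0.0423 to 11.5 ± 1.001 RPKM per RPKM of *CDK2* (SD, n = 3 each). *CDK2* itself was lower with TH-588 (log2 fold change -0.86, SE 0.13, adjusted p = 0.000150), and so the ratio of *CDKN1B* to *CDK2* rose from 2.08 ± 0.268 to 3.88 ± 0.316 with no called change of *CDKN1B*. The INK4 genes were small next to *CDK4*. The ratio of *CDKN2C* to *CDK4* was 0.0535 ± 0.00549 with DMSO and 0.0376 ± 0.000852 with TH-588, and that of *CDKN2D* to *CDK4* was 0.0126 ± 0.00168 and 0.0313 ± 0.00354 (SD, n = 3 each). These are ratios of mRNA and say nothing of the proteins in a complex.

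The genes around the inhibitors were counted in 5 lists, beside a median log2 fold change of 0.02 over all genes tested, of which 24.2% were higher and 25.3% lower. Of the kinases and cyclins bound by the inhibitors, 12 of 13 were tested, 9 were lower, 0 were higher and 3 (*CCND1*, *CCND2* and *CCNA1*) were not called, with a median of -0.68. *CCNE2*, a cyclin that activates CDK2, had the largest fall (log2 fold change -2.06, SE 0.12), before *CDK1* (-1.86, SE 0.12), the mitotic kinase, and *CCNA2* (-1.58, SE 0.09), the S and G2 phase cyclin. *CDK6*, the other kinase of the INK4 proteins, had 10 counts in DMSO replicate A and at most 1 in each other library and was not tested. The D cyclins *CCND1* and *CCND2*, which the INK4 proteins displace, had log2 fold changes of 0.06 (SE 0.11) and 0.06 (SE 0.08), and the other D cyclin, *CCND3*, was lower (-0.69, SE 0.11, adjusted p = 0.000267).

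Of 11 genes for turnover and sequestration of the CIP/KIP proteins, 9 were lower, 1 was higher and 1, *SKP1*, was not called, with a median log2 fold change of -0.47. *DTL*, which delivers p21 to the CUL4 ubiquitin ligase, had a log2 fold change of -1.35 (SE 0.10), *SKP2*, the receptor that delivers p27 to SCF, one of -1.15 (SE 0.09), and *CDC20*, an activator of the anaphase promoting complex, one of -1.03 (SE 0.08). *CUL4B*, a scaffold of CUL4 ligases, was higher (0.44, SE 0.07). These 4 are the 3 largest falls and the only rise among the called genes of the list. The other called genes of the list also had no overlap between their 3 DMSO and 3 TH-588 values.

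Among 24 known transcription and chromatin regulators of the inhibitor genes, 23 were tested, 6 were higher, 8 were lower and 9 were not called, with a median log2 fold change of 0.01, near the background in both directions. *MDM2*, the p53 target that encodes its ubiquitin ligase, stood at 96.8 to 105 CPM with DMSO and rose to 365 to 434 CPM with TH-588 (log2 fold change 2.00, SE 0.09, adjusted p = 1.86e-08). *KDM6B* (1.42, SE 0.09), a demethylase of the Polycomb mark, and *SP1* (0.50, SE 0.10), a factor that binds GC boxes, were also higher. *TFAP4*, a repressor of *CDKN1A*, was lower (-1.27, SE 0.13), as were the Polycomb genes *EZH2* (-0.92, SE 0.08) and *EED* (-0.65, SE 0.10), which are known for silencing the *CDKN2A* locus and *CDKN1C*. *FOXO4*, one of the FOXO factors known to activate *CDKN1B*, is named after its values were seen. It stood at 0.182 to 0.316 CPM with DMSO and at 1.72 to 2.98 CPM with TH-588 (log2 fold change 3.17, SE 0.30, adjusted p = 3.51e-06), at a low level. The more abundant *FOXO1* and *FOXO3*, with DMSO means of 6.90 and 9.18 CPM, were not called. Their log2 fold changes were 0.37 (SE 0.16, adjusted p = 0.0756) and 0.12 (SE 0.11, adjusted p = 0.417).

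Downstream, 20 genes of the pocket proteins, E2F factors and the DREAM complex were tested, with *MYBL2* and *FOXM1* in the list. Of these 20 genes, 13 were lower, 2 were higher and 5 were not called, with a median log2 fold change of -0.53. *E2F8* (-2.55, SE 0.10), *E2F2* (-2.15, SE 0.14) and *MYBL2* (-1.77, SE 0.15) had the largest falls, and *TFDP2*, an E2F partner, was higher (0.46, SE 0.08). Of 10 other p53 targets with a part in cell cycle arrest, 9 were tested, 8 were higher and 1 was lower, with a median log2 fold change of 2.16. *SFN*, among the 8, was rare. Its counts were 0, 1 and 5 in DMSO A, B and C and 6, 25 and 16 in TH-588 A, B and C. *SFN* passed the filter only through the TH-588 libraries, where it was higher, so its call carries no weight here. Over the alternatives, the median of this list lay between 1.72 and 2.26. *BTG2* (3.40, SE 0.16), *ZMAT3* (2.34, SE 0.11) and *GADD45A* (2.26, SE 0.17) had the largest rises of those above a mean log2 CPM of 2, each below the 4.71 of *CDKN1A*. The member that fell was *GTSE1* (-1.06, SE 0.09), which is known to counter p53 and to stabilize p21, and *RPRM* had no counts. These lists were chosen with earlier results of these libraries known.

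**Figure D4:**
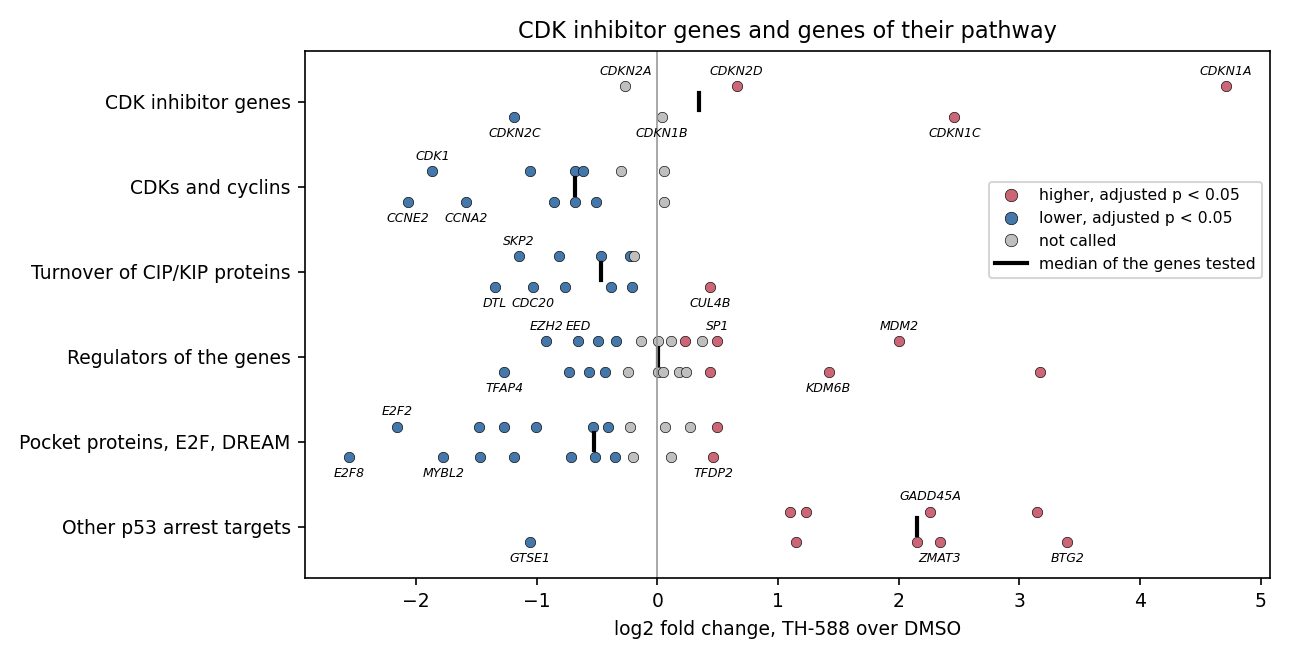
Log2 fold change, TH-588 over DMSO, of the tested CDK inhibitor genes and of the tested genes of 5 lists, with red for higher, blue for lower and gray for genes not called at an adjusted p under 0.05, and a bar at each median. The medians run from -0.68 for kinases and cyclins to 2.16 for other p53 arrest targets, with the rare *SFN* included. *CDKN1A* at 4.71 lies to the right of every gene shown.

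Within 100 kb of the 7 genes, 55 genes were listed, 23 of them with 0 counts in all libraries, and 21 were tested, of which 5 were higher, 7 were lower and 9 were not called. These counts lie near the 24.2% higher and 25.3% lower of all genes tested and are no result about the neighbors. Next to *CDKN1A*, the splicing factor gene *SRSF3* was lower (log2 fold change -0.67, SE 0.10, adjusted p = 0.000113). The noncoding RNA *PANDAR*, upstream of *CDKN1A*, had 1 count in TH-588 replicate B and 0 in the other libraries. *CREBL2*, next to *CDKN1B*, was higher (1.02, SE 0.16, adjusted p = 0.000188) while *CDKN1B* was not called.

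Around *CDKN1C*, in an imprinted domain, *NAP1L4* was lower (-0.42, SE 0.08, adjusted p = 0.000668). *SLC22A18*, a nearer neighbor that is named after its values were seen, was higher, from 1.08 to 1.70 CPM with DMSO to between 4.78 and 5.74 CPM with TH-588 (1.93, SE 0.19, adjusted p = 5.28e-06). *KCNQ1OT1*, the antisense RNA that silences *CDKN1C* on one allele, lies outside the 100 kb. It stood at 2.19, 1.85 and 1.79 CPM in DMSO A, B and C and at 1.46, 1.25 and 1.29 CPM in TH-588 A, B and C. Its groups did not overlap, and its log2 fold change was -0.56 (SE 0.19, adjusted p = 0.0310). The call of *KCNQ1OT1* was lost under most alternatives, with an adjusted p of 0.0262 to 0.137 over all of them. *FAF1*, an adaptor of the segregase VCP and the neighbor of *CDKN2C*, was lower as *CDKN2C* was (-0.73, SE 0.07, adjusted p = 6.57e-06). Around *CDKN2D*, *SLC44A2* was higher (0.90, SE 0.07), and *PDE4A* (-0.77, SE 0.12), *KEAP1* (-0.39, SE 0.11) and *KRI1* (-0.33, SE 0.12) were lower, all with an adjusted p at or below 0.0340. The calls of *KRI1* and *KEAP1* were lost with library size only, with adjusted p of 0.248 and 0.0606. The call of *KRI1* was also lost without DMSO replicate A (-0.21, adjusted p = 0.186), DMSO replicate C (adjusted p = 0.0552), TH-588 replicate A (adjusted p = 0.0947) or TH-588 replicate C (adjusted p = 0.186). That of *KEAP1* was also lost without DMSO replicate C (adjusted p = 0.0502) or TH-588 replicate C (adjusted p = 0.0608).

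Likeness in pattern was measured as the root mean square difference over the 6 libraries of log2(CPM + 0.5), centered on each gene's mean, over genes whose mean log2 CPM reached 2. The genes nearest to *CDKN1A* were *INPP5D* (0.377, log2 fold change 4.55, SE 0.22), *DNAI3* (0.398, log2 fold change 4.27, SE 0.13) and *GDF15* (0.439, log2 fold change 5.85, SE 0.15). The added 0.5 CPM compresses the changes of these genes more than that of *CDKN1A*. Their DMSO means were 0.812, 1.45 and 1.47 CPM, against 5.35 CPM for *CDKN1A*. The nearest to *CDKN2C* had smaller distances, *HSP90AA1* (0.024), *POLE3* (0.046) and *PUM3* (0.046), with log2 fold changes of -1.11, -1.23 and -1.17. *CDKN1C* was nearest to *AHNAK2* (0.094), *PHLDB3* (0.099) and *JUND* (0.130), whose log2 fold changes of 1.404, 1.34 and 1.27 were smaller than the 2.46 of *CDKN1C*. On this scale the added 0.5 CPM compresses a gene of so low a level. *CDKN2D* was nearest to *WASHC1* (0.050), *WASH8P* (0.068) and *ZNF428* (0.077), with log2 fold changes of 0.50, 0.52 and 0.56, although *WASHC1* and *WASH8P* belong to a family of near-identical copies and their counts are uncertain. Of the members without a called change, *CDKN1B* was nearest to *PRMT6* (0.023), *UTP14C* (0.030) and *TRAF7* (0.034), and *CDKN2A* to *CCDC74B* (0.071), *GAS2L1* (0.099) and *SYDE1* (0.103). These differences describe 6 libraries and were not tested.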

How the data were processed

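RNA of 3 DMSO and 3 TH-588 replicates of A2780 cells was measured by RNA-seq. Per the submitters' processing notes and the study's methods, the authors used TopHat for alignment to GRCh38 and featureCounts 1.4.6 (Subread) for counts per gene, and deposited raw counts without normalization. Strand settings and the treatment of reads that overlap several genes are not given in the sources used here. UCSC gene models are named in the methods, but genes in the table have Ensembl identifiers, of which 57754 of 58336 matched a symbol.

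From the deposited counts, edgeR 4.0.16 in R 4.3.3 was run with TMM factors, filterByExpr at its defaults and the quasi-likelihood test on all genes, with an adjusted p under 0.05 as threshold and no term for the replicate letter. SE is the size of the log2 fold change over the root of its F statistic. RPKM divides CPM by the exon length of the table. Shares were compared with a two-sided exact permutation test. The procedure was tested on simulated data. Counts of 28537837 to 99074175 per library set the precision, and floors of 3 counts and intervals cover counting error only. Replicates of a group differed by more than sampling noise (chi-square over degrees of freedom 25.2 to 180), so each library was 1 replicate.

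Alternatives were limma-voom (limma 3.58.1), DESeq2 1.42.0, its size factors in edgeR, library size only, 2 other filters, removal of the 10 most abundant genes, thinning to the shallowest library, each library left out, a replicate block, an adjusted p under 0.01, CPM in place of RPKM and a 50 kb window. The members and lists were chosen with earlier results of these data known. In each list, the 3 largest rises and 3 largest falls were named among called genes whose mean log2 CPM reached 2 and whose groups did not overlap, with *MDM2* in any case. Some genes that the rule names are not reported here. Called neighbors at that level were named, with *CDKN2B-AS1*, *MTAP*, *KCNQ1OT1* and *PANDAR* in any case, and the 3 genes nearest to each tested member in pattern. Other genes are given beside a member they bind, overlap or share a list with. Promoters are RefSeq entries on GRCh38.p14, and upstream windows were read from hg38 at RefSeq starts.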

Additional observations from a re-analysis of the deposited data

How the results depend on the processing

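The calls of *CDKN1A*, *CDKN1C* and *CDKN2C* kept their direction and their side of the threshold under all 16 alternatives. The call of *CDKN2D* (log2 fold change 0.66) was lost at an adjusted p under 0.01, where its adjusted p was 0.0125, and ranged from 0.49 to 0.77 with 1 library left out, with the losses without DMSO replicate C and without TH-588 replicate B. With 1 library left out, *CDKN1B* ranged from -0.037 to 0.154 and *CDKN2A* from -0.522 to 0.017, without a call, and the sign of *CDKN1B* turned without TH-588 replicate B (-0.037) and that of *CDKN2A* without DMSO replicate A (0.017). The log2 fold changes near 0 of *PRMT6* (-0.025 to 0.135), *UTP14C* (-0.022 to 0.126) and *TRAF7* (-0.062 to 0.126) also turned without TH-588 replicate B. The cause was not tested. *CDKN2B* entered 6 of the alternatives, with log2 fold changes of -0.47 to 0.44 and no call. Without division by length, the share of *CDKN1A* in the summed level differed by 63.2 percentage points between the groups in place of 61.6. Within 50 kb instead of 100 kb, 13 neighbors were tested, of which 4 were higher, 2 were lower and 7 were not called. Of all genes tested, 24.2% were higher and 25.3% lower, and counts of so few genes are no result about the neighbors.

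Library size only called 7034 genes, 60.4% of them higher, against 48.9% of 7852 with TMM, and moved the median of all genes by 0.11 (log2), with no call or direction of a member changed. Over all alternatives, 5831 to 8225 genes were called. The replicate letters did not pair the libraries (correlations of -0.17, -0.20 and -0.01 between same-lettered libraries). The replicate block gave 7195 calls, 7129 of them also without it, and no member's call changed. Depth limits *CDKN2B* and *CDKN1C*, the members with the fewest counts, and the neighbors *DINOL*, *PANDAR* and *CDKN2B-AS1*.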
